A study of Mus musculus with 3 samples.

Results

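The mouse potassium channel genes were taken as the RefSeq protein-coding genes whose symbol starts with Kcn, which gave 94 of the 21883 protein-coding genes placed on chromosomes. They fall into 19 subfamilies by the first letters of the symbol. Open chromatin at these genes was read from ATAC-seq, an assay in which a transposase cuts and tags accessible DNA, in projection neurons sorted by FACS from mouse brain. Corticospinal motor neurons (CSMN), whose axons run to the spinal cord, gave 1 library, and callosal projection neurons (CPN), whose axons cross to the other hemisphere, gave 2 libraries, called CPN 1 and CPN 2. The labels name no genotype, treatment, strain, age or sorting marker for either cell type, and call each library a biological replicate. A Kcn gene was given every peak that touched its gene body or the 10 kb on each side. CSMN was represented by 1 library, so the cell types are compared by counts, without a test. The libraries are bulk, so a change in the share of nuclei that are open at a site cannot be told apart from a change in how open each nucleus is.

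Potassium channels let potassium leave the neuron and so set its resting potential, the shape of the action potential and the pattern of firing. Voltage-gated (Kv) channels are built from pore subunits that open on depolarisation, joined by silent pore subunits and by beta, KChIP and MinK-related partners that change gating or traffic. Calcium-activated BK and SK channels shape the afterpotentials that follow a spike, inward rectifiers and leak channels hold the membrane near rest, and in cortical pyramidal neurons Kv4 and Kv7 channels act as brakes on dendritic excitability and repetitive firing.

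The peak lists held 98067 peaks in CSMN, 134018 in CPN 1 and 158779 in CPN 2. Depth is unknown, as no read totals were at hand. The CSMN list was shorter and its peaks were weaker: 55.2% of CSMN peaks had a −log10 q of 5 or more, against 72.4% in CPN 1 and 65.4% in CPN 2. Gene ends of projection neuron markers were open in every list apart from Slc17a7 in CPN 1, and those of the 4 CSMN markers in all 3 lists. Callosal markers had a gene-end peak at 3 of 4 genes in CSMN and at all 4 in CPN 1 and CPN 2. Gene ends of other cell types were open too. All 4 interneuron and all 4 endothelial markers had a peak there in every list, astrocyte markers had 2 of 4 in CSMN, 2 in CPN 1 and 3 in CPN 2, oligodendrocyte markers 2, 3 and 3 of 4, and microglia markers 2, 3 and 2 of 4. Aqp4, Sox10 and Csf1r, of astrocytes, oligodendrocytes and microglia, had no gene-end peak in any list. The windows of every marker list held the fewest peaks in CSMN. Endothelial markers had 19 peaks in CSMN, 40 in CPN 1 and 45 in CPN 2. The CSMN markers had 37, 64 and 75, and the microglia markers 15, 20 and 22. The part of other cell types in the results at channel genes was not tested.

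Start sites were shown for the genes on which the results turn, with 250 bases before and 50 after the start, from RefSeq on GRCm38.p6, the assembly of mm10. Kcnt2, which encodes a sodium-activated channel, had the strongest start window in every list (chr1:140245468-140245767, plus strand). Kcnh6, an ERG channel gene (chr11:106007898-106008197, plus strand), and Kcnj4, an inward rectifier gene (chr15:79505192-79505491, minus strand), had peaks there in the CPN lists alone. Kcnma1, the BK pore gene (chr14:24004156-24004455, minus strand), and Kcnip4, a KChIP gene with 2 listed starts (chr5:48599633-48599932 and chr5:49285610-49285909, minus strand), stood at the ends of the balance between the cell types. Capitals mark the GC box GGGCGG, the E-box CAGATG and the AP-1 letters TGANTCA, each read on both strands.
Kcnt2: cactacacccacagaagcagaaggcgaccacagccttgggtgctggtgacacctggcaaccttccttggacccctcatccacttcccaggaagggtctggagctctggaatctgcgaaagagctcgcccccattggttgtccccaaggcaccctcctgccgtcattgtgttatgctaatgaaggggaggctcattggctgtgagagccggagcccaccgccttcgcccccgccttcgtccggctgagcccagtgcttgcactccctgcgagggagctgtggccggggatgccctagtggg
Kcnh6: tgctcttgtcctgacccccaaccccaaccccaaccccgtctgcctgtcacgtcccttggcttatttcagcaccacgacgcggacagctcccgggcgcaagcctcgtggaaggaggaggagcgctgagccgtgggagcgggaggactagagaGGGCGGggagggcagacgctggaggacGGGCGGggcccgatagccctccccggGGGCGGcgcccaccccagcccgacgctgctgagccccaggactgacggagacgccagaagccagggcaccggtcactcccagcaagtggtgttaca
Kcnj4: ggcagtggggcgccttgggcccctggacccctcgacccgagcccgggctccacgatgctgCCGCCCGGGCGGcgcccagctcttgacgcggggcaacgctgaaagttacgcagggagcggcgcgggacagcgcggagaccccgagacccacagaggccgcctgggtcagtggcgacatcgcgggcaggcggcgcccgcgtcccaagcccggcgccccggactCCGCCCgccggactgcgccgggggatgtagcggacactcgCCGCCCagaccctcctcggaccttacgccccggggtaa
Kcnma1: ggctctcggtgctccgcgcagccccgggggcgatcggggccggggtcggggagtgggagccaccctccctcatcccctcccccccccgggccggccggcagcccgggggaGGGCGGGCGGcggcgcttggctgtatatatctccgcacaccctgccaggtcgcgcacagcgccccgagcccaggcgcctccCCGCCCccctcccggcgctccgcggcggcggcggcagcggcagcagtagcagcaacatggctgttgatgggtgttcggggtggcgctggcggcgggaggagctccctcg
Kcnip4, downstream start: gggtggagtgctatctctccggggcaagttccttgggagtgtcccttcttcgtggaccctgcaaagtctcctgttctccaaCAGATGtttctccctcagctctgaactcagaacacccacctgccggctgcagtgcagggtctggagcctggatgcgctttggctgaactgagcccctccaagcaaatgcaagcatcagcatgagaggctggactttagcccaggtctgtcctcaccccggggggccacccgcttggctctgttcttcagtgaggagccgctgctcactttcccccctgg
Kcnip4, upstream start: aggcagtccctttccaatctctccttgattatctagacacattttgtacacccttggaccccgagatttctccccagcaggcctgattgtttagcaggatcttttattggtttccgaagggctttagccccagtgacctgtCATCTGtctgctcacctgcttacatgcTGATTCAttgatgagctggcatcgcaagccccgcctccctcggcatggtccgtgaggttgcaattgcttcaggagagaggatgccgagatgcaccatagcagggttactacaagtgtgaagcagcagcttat

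Kcnh6 held 3 GC boxes, Kcnj4 held 4 and Kcnma1 held 3, whereas those of Kcnt2 and Kcnip4 held no GC box. The start windows of Kcnip4 held 1 E-box each, and the upstream window also held the AP-1 letters. Over the 94 start windows found for 69 of the Kcn genes, the GC box was present in 47.9%, against 46.2% of 21262 windows of all protein-coding genes. The E-box was present in 20.2% of Kcn windows and 14.6% of all windows, the AP-1 letters in 4.26% and 6.99%, and the CRE letters TGACGTCA in 0 Kcn windows and 2.23% of all windows. Motifs were counted separately and could share bases, and a match is a description of letters, not of binding.

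Most channel genes were open at their start in both cell types. A start window carried a peak in every list at 48 of the 69 genes with a listed start, against 10719 of 17491 protein-coding genes. Of the 94 windows, 58 did so (61.7%, with 59.5% of all protein-coding windows). A single window was open in CSMN alone, a second start of the SK channel gene Kcnn1, with a fold of 1.74 and a −log10 q of 2.64 (0.767% of all windows were of this class). The nearest CPN 2 peak lay 529 bp from this window, with a fold of 2.26. The nearest CPN 1 peak lay 1365 bp from it, with a fold of 13.7. The other listed start of Kcnn1 was open in every list. Windows with a peak in every list had a median of 63.7% GC, and the 19 of 94 Kcn windows without any peak (33.3% of all windows had none) had 52.7%, while the same medians over all genes were 62.3% and 46.0%. The peak on a shared start window had a fold enrichment, the authors' own value at the summit within each list, of 2.05 to 14.5 in CSMN, of 2.98 to 22.2 in CPN 1 and of 2.67 to 21.5 in CPN 2. Folds of different lists were not tested against each other, since the whole lists differed in strength.

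**Figure D1:**
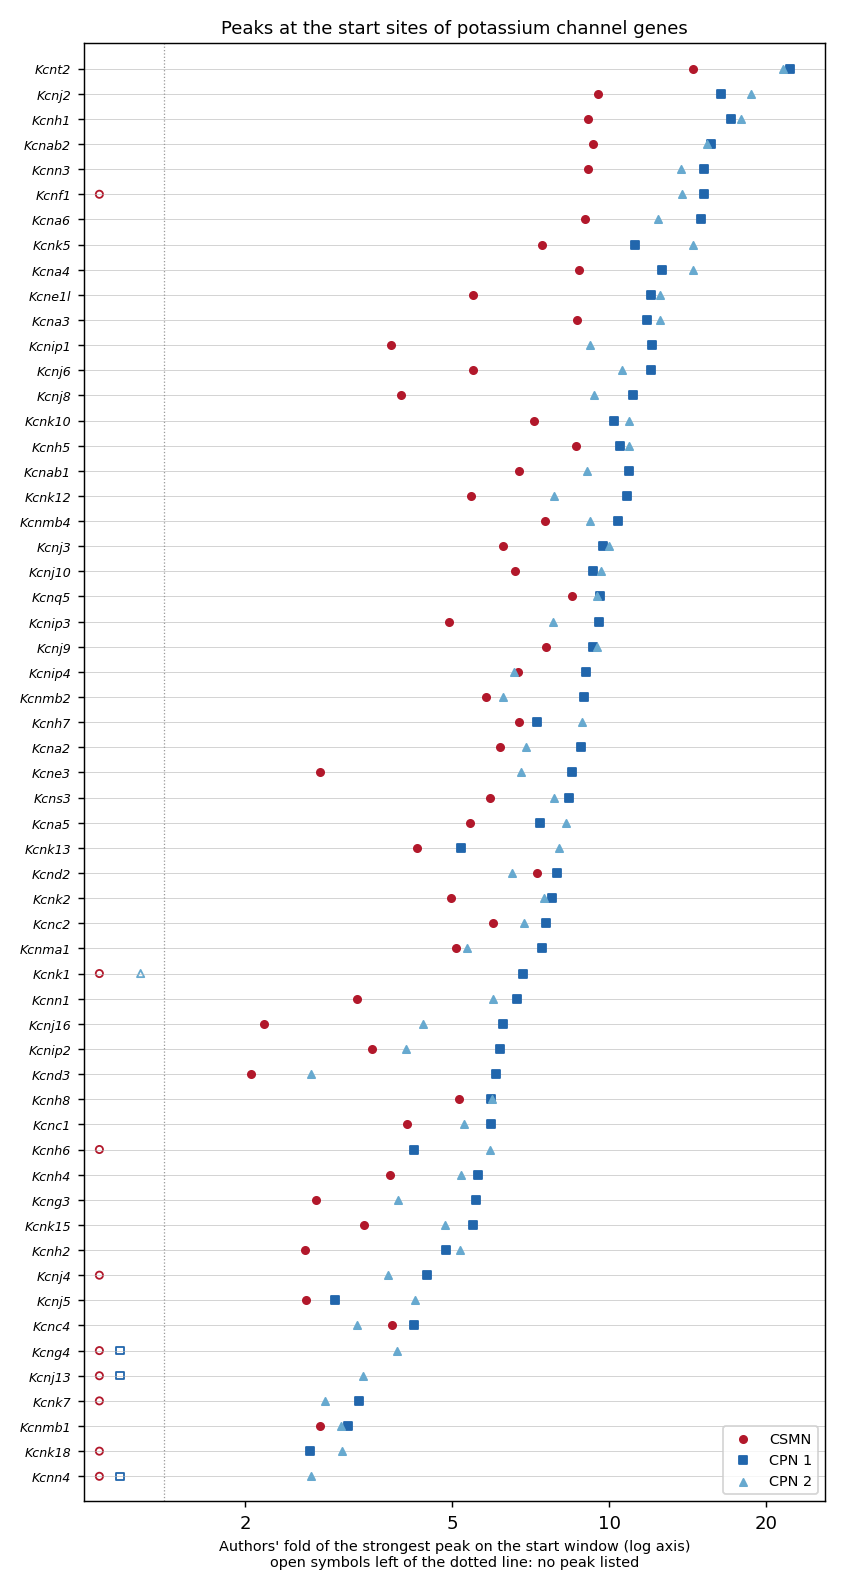
Authors' fold of the strongest peak on the start window of each of 57 potassium channel genes (log axis), with the CSMN, CPN 1 and CPN 2 libraries as circles, squares and triangles; open symbols left of the dotted line mark a library with no peak on that window. Kcnt2 lies highest with 14.5 in CSMN, 22.2 in CPN 1 and 21.5 in CPN 2. Kcnh6, Kcnj4, Kcnk7, Kcnk18 and Kcnf1 have an open symbol for CSMN alone, and at Kcnf1 a CSMN peak ended 135 bp short of the window.

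At Kcnt2 the start window had a fold of 14.5 in CSMN, 22.2 in CPN 1 and 21.5 in CPN 2. This was the highest of the 69 genes with a listed start in each list. The other 25 members had no listed start, and of these Kcnv1 had a gene-end peak with folds of 12.4, 19.9 and 22.1. Kcnj2, which encodes the classical inward rectifier, had 9.52 in CSMN, 16.4 in CPN 1 and 18.7 in CPN 2. Kcnab2, a Kv beta subunit gene, had 9.3 in CSMN, 15.7 in CPN 1 and 15.4 in CPN 2. The start of Kcnh1, which encodes an EAG channel, had 9.12 in CSMN, 17.1 in CPN 1 and 17.9 in CPN 2. These genes thus carried a strong peak in every library. Kcnn3, an SK channel gene, had 9.12 in CSMN, 15.2 in CPN 1 and 13.7 in CPN 2. The Kv4 gene Kcnd3 lay at the other end of the shared starts, with a fold of 2.05 in CSMN, 6.06 in CPN 1 and 2.67 in CPN 2. Its CSMN peak was 152 bp wide and had a −log10 q of 2.49, where the lowest in the CSMN list was 1.3. A stronger peak lay beside the window: within 1 kb of this start the folds were 4.09 in CSMN, 6.06 in CPN 1 and 4.82 in CPN 2.

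The start windows covered by CPN 1 and CPN 2 peaks but by no CSMN peak belonged to 5 genes, 5 of the 94 windows (2.85% of all windows). At Kcnh6 the fold was 4.21 for CPN 1 and 5.91 for CPN 2, and the nearest CSMN peak lay 4137 bp from the window. At Kcnj4 the CPN folds were 4.46 and 3.76, and the nearest CSMN peak lay 5964 bp away. That peak lay at the upstream end of the gene, which was open in every list. The folds there were 4.93 in CSMN, 9.15 in CPN 1 and 9.77 in CPN 2. Kcnk7 and Kcnk18, both of the leak channel family, had no CSMN peak within 10 kb of the start. Their CPN peaks were weak, with folds of 3.31 and 2.85 at Kcnk7 and of 2.66 and 3.07 at Kcnk18. The fifth, the silent subunit gene Kcnf1, was open in all lists: its CSMN peak, with a fold of 9.45, ended 135 bp short of the window. The Kcnk1 window carried a peak of CPN 1 alone for the same reason, as the CSMN and CPN 2 peaks began 9 and 5 bp beyond it.

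No peak in any library touched a listed start window at 12 of the 69 genes, while 32.3% of all genes with a listed start had none. They were Kcna7, Kcna10, Kcne2, Kcne4, Kcnj1, Kcnj12, Kcnj15, Kcnk4, Kcnk16, Kcnmb3, Kcns1 and Kcnrg. At 2 of the 12 a peak of every library lay within 1 kb of the start. Kcna7, a Kv1 gene, had 2.86 in CSMN, 5.78 in CPN 1 and 7.1 in CPN 2 there, and Kcnk4, of the leak family, had 3.53, 7.13 and 5.97. At 7 of the 12 no library had a peak within 1 kb. Kcnj13, Kcng4 and Kcnn4, the intermediate-conductance channel gene of red cells and lymphocytes, had a window peak of CPN 2 alone. By role, a start window was open in every list at all 4 KChIP, 2 Kv beta, 3 Kv3 and 2 Kv4 genes with a listed start, at 5 of 7 Kv1 genes, at 8 of 13 inward rectifier genes and at 6 of 11 leak channel genes. Over all protein-coding genes with a listed start, 10719 of 17491 had such a window.

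With gene ends in place of start windows, which covers all 94 members, 71 had a peak within 1 kb of an end in every list (75.5%, with 64.1% of all protein-coding genes). Ends were open in CSMN and in no CPN list at 0 members (1.41% of all genes), and in both CPN lists but not CSMN at 4 (3.34% of all genes). Counted singly, 4 ends were open in CSMN alone and 11 in both CPN libraries but not CSMN. Single ends were not counted over all genes, so these 2 counts have no background share. The 11 were at Kcnh1, Kcnh2, Kcnh6, Kcnip3, Kcnn4, Kcng4, Kcnmb4, Kcne1, Kcnk4, Kcnk7 and Kcnk18. The left end of Kcnh1 had a CPN-only peak with folds of 6.51 and 6.17, 137 bp wide as a merged region, although the start of the gene was open in all lists. The right end of Kcnh8, an ELK channel gene, had a peak in CSMN alone with a fold of 3.04 and a −log10 q of 6.38. Further CSMN-only ends were at Kcns1, Kcna3 and Kcnc4, with a fold of 2.43 at Kcns1 and 1.96 at Kcna3. At these genes and at Kcnh8 the CSMN-only end was the one away from the listed start.

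Across gene bodies and flanks the 3 lists merged into 1275 regions at Kcn genes. Each gene had at least 1 region, with a median of 10 against 4 over all protein-coding genes. Kcnj13, which had no CSMN peak at all, and Kcng4 had no region open in all libraries. How many of all genes lacked such a region was not counted. The windows held 620 peaks in CSMN, 822 in CPN 1 and 968 in CPN 2, or 0.632%, 0.613% and 0.61% of the lists. Within each list the median fold at Kcn genes was near that of all peaks, at 2.86 against 2.86 in CSMN, 3.7 against 3.82 in CPN 1 and 3.55 against 3.68 in CPN 2. Of the regions, 5.57% also lay in the body of another protein-coding gene, and 5 regions were shared by the neighbours Kcnip1 and Kcnmb1 or Kcnj9 and Kcnj10.

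Of the 1275 regions, 381 were open in every library (29.9%, with 32.4% over all genes). CSMN-only regions are those that hold a CSMN peak but no CPN peak, and CPN-only regions those that hold peaks of CPN 1 and CPN 2 but no CSMN peak. The first class counted 165 at Kcn genes and the second 229, which puts the CSMN-only share of their sum at 41.9% (95% Wilson interval 37.1 to 46.8, for counting error only), against 32.5% over all genes (32.0 to 33.0). Regions within 1 kb of a gene end were open in every library in 66.2% of cases, those inside a gene body in 23.5% and those in the flanks in 34.5%, and the same order held over all genes, with 68.0% at gene ends and 30.2% in flanks. The CSMN-only share at Kcn genes was 30.0% at gene ends (14.5 to 51.9), 44.9% in gene bodies (39.5 to 50.4) and 29.3% in flanks (19.2 to 42.0). Over all genes it was 34.5%, 31.9% and 35.3%, so the gene-end and flank intervals include the all-gene values. The gene-end share rests on 6 CSMN-only and 14 CPN-only regions. A further 173 regions were found in CPN 1 alone and 271 in CPN 2 alone, so single-library regions were common within CPN as well. Without CPN 1 the CPN-only regions numbered 530, and without CPN 2 they numbered 403.

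The balance depended on the strength asked of a peak. Few CSMN-only regions were strong: 19 of 165 had a −log10 q of 5 or more, whereas 120 of 229 CPN-only regions did so in both libraries. This contrast was not particular to Kcn genes. Over all genes the strong ones were 1386 of 12647 in the first class and 15222 of 26266 in the second. The 2 classes are unlike, as a CPN-only region needs a peak in 2 libraries and a CSMN-only region in 1. Of regions found in a single CPN library, 30 of 173 in CPN 1 and 51 of 271 in CPN 2 were strong. Among strong CSMN-only and CPN-only regions, the CSMN-only share was 13.7% at Kcn genes (8.93 to 20.4) and 8.35% over all genes. With the CPN lists trimmed to the 98067 peaks with the highest −log10 p, the share was 63.1% at Kcn genes and 53.7% over all genes, so CSMN-only regions became the larger class in both. Related families on the full lists stood at 31.8% for calcium, sodium and HCN channel genes (26.7 to 37.4) and at 44.2% for glutamate and GABA receptor genes (38.8 to 49.8).

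Gene by gene, 20 members held an excess of CSMN-only regions (21.3%, with 14.5% of all genes) and 48 an excess of CPN-only regions (51.1%, with 37.9%). The median difference was -1 region for Kcn genes and 0 for all genes, which hold fewer regions each. With lists of equal length 43 members had more CSMN-only regions (25.9% of all genes) and 26 had more CPN-only regions (22.7%). Among strong regions 3 members had more CSMN-only and 47 more CPN-only regions, with 2.48% and 35.4% of all genes. Of the 48 genes with more CPN-only regions, 38 kept that direction among strong regions and 26 with equal lengths, where 13 turned. Of the 20 genes with more CSMN-only regions, 3 kept that direction among strong regions and 4 turned. With equal lengths, which trims the CPN lists alone, all 20 kept it.

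**Figure D2:**
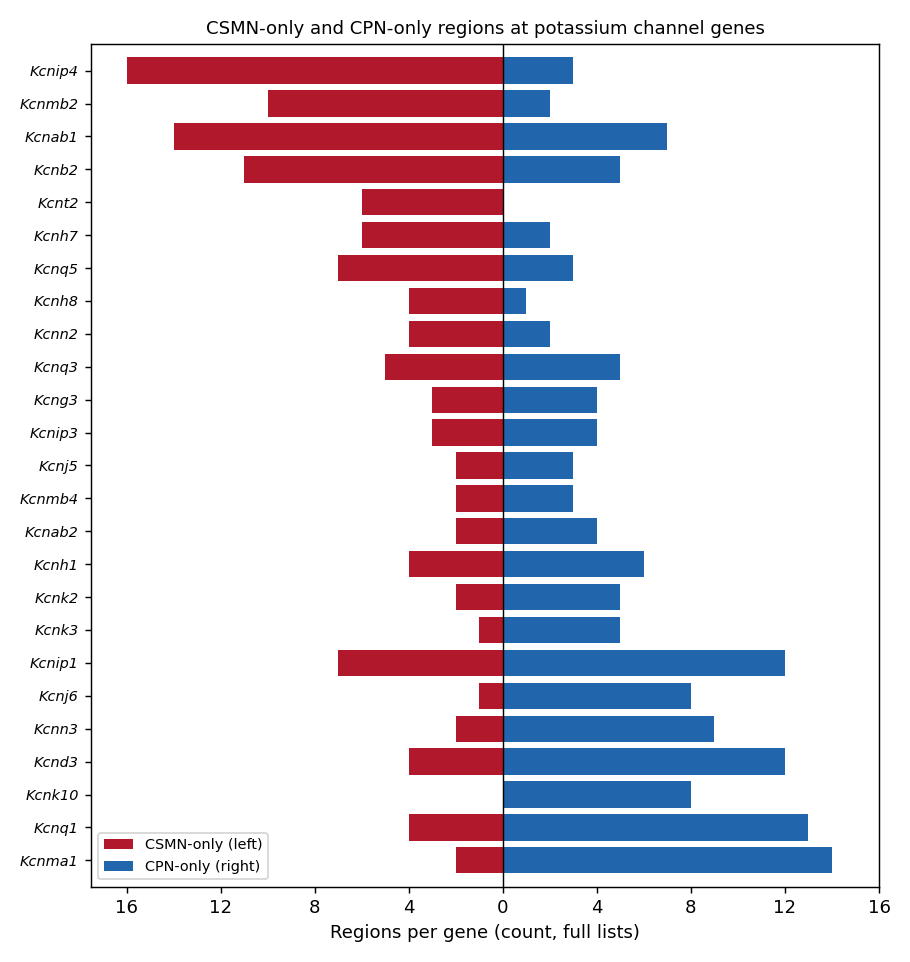
Number of CSMN-only regions (red, to the left) and CPN-only regions (blue, to the right) at 25 potassium channel genes with at least 5 such regions, full lists, ordered by the difference. Kcnip4 has 16 CSMN-only regions and 3 CPN-only ones, and Kcnma1 has 2 and 14.

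The largest CSMN-only excess was at Kcnip4, whose product KChIP4 binds Kv4 channels and slows their inactivation. Kcnip4, at 1140 kb the longest member, had 34 peaks in CSMN, 21 in CPN 1 and 24 in CPN 2. It held 16 CSMN-only regions and 3 CPN-only ones, and among strong regions 6 and 2. The strongest, at chromosome 5, 48489629 to 48490076, lay 100282 bp inside the gene with a fold of 3.3 in CSMN. Other strong CSMN-only regions lay at 48865165 to 48865496 and 48841062 to 48841250, with folds of 3.21 and 2.95. CSMN peaks therefore outnumbered those of either CPN library along the gene, while both listed starts were open in all lists, with folds of 5.55 in CSMN, 5.44 in CPN 1 and 5.55 in CPN 2 at the upstream start and 6.68, 9.02 and 6.57 at the downstream start.

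The next genes by CSMN-only excess were also long. Kcnmb2, which encodes an inactivating BK beta subunit, had 18 peaks in CSMN, 10 in CPN 1 and 16 in CPN 2, with 10 CSMN-only regions and 2 CPN-only ones but 1 and 1 among strong regions. Kcnab1, a Kv beta subunit gene, had 31, 23 and 27 peaks and 14 CSMN-only against 7 CPN-only regions, which turned to 2 and 5 among strong regions. Kcnb2, a Kv2 delayed rectifier gene, had 26, 17 and 20 peaks, with 11 and 5 such regions, and 4 of each when strong. Its strong CSMN-only regions included a pair at chromosome 1, 15383171 to 15383339 and 15383610 to 15383938, with folds of 2.86 and 3.04, inside the predicted gene Gm51415. Kcnip4, Kcnab1, Kcnb2 and Kcnmb2 together held 51 of the 165 CSMN-only regions.

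Kcnt2, Kcnd2, Kcnh7 and Kcnq5 completed the 8 genes with the largest CSMN-only excess. Kcnt2 had 9 peaks in CSMN and 4 in each CPN library, with 6 CSMN-only regions and 0 CPN-only ones, none of them strong. Kcnd2, the main Kv4 pore gene of hippocampal and cortical dendrites, had 12 peaks in CSMN, 8 in CPN 1 and 9 in CPN 2, with 4 CSMN-only regions and 0 CPN-only ones and 1 and 0 when strong. The strong region lay at chromosome 6, 21327362 to 21327565, with a fold of 3.04. Kcnh7, an ERG channel gene, had 13, 9 and 11 peaks, with 6 and 2 regions, and turned to 1 and 2 among strong regions. Kcnq5, a Kv7 gene of the M-current, had 15, 15 and 16 peaks with 7 and 3 regions, and turned to 0 and 1. Only Kcnip4, Kcnd2 and the Kv3 gene Kcnc2, with 3 and 0 regions and 1 and 0 strong ones, kept a CSMN-only excess among strong regions.

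The largest CPN-only excess was at Kcnma1, the pore subunit of the BK channel, which is opened by calcium and voltage together. Kcnma1 had 12 peaks in CSMN, 40 in CPN 1 and 41 in CPN 2. It held 2 CSMN-only regions and 14 CPN-only ones, with 0 and 7 when strong and 3 and 7 with lists of equal length. Its strongest CPN-only region lay at chromosome 14, 23583277 to 23583502, 291088 bp inside the gene, with folds of 6.94 and 7.16. The CSMN library thus had fewer peaks than each CPN library along the gene body, and the start itself was open in every list, with a fold of 5.07 in CSMN, 7.42 in CPN 1 and 5.32 in CPN 2. Another 17 regions were found in CPN 1 alone and 17 in CPN 2 alone.

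**Figure D3:**
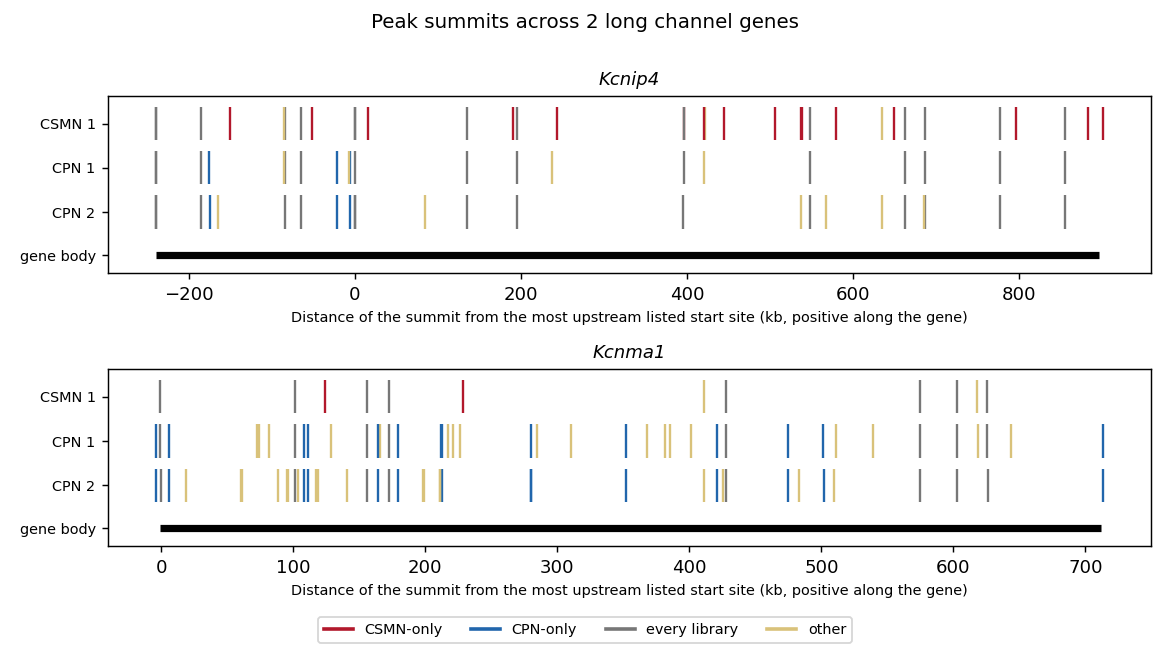
Peak summits in CSMN, CPN 1 and CPN 2 along Kcnip4 and Kcnma1, by distance from the most upstream listed start site in kb (positive along the gene), with CSMN-only regions in red, CPN-only in blue, regions of every library in grey and other classes in yellow; the black bar is the gene body. The 16 CSMN-only regions of Kcnip4 are spread along the gene, as are the 14 CPN-only regions of Kcnma1.

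Kcnq1, a Kv7 gene best known from heart and inner ear, had 20 peaks in CSMN and 37 in each CPN library. It held 4 CSMN-only regions and 13 CPN-only ones and 0 and 8 strong ones, but 9 and 8 with lists of equal length. Kcnd3, a Kv4 gene of the transient A-type current, had 29, 36 and 43 peaks with 4 and 12 regions, and 8 and 9 with equal lengths. Kcnk10, which encodes the mechanosensitive leak channel TREK-2, had 8, 19 and 23 peaks with 0 CSMN-only regions and 8 CPN-only ones. These genes had fewer peaks in CSMN than in each CPN library. Among strong regions Kcnd3 stood at 0 and 7 and Kcnk10 at 0 and 4.

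Kcnj6, which encodes the GIRK2 channel opened by G proteins, had 11 peaks in CSMN, 25 in CPN 1 and 34 in CPN 2, with 1 CSMN-only regions and 8 CPN-only ones, and 1 and 7 with equal lengths. Kcnn3, the SK3 gene, had 14, 30 and 32 peaks with 2 and 9 regions, and 2 and 4 with equal lengths. Kcnip1, which has the most regions of the family at 66, had 29, 39 and 53 peaks with 7 and 12 regions, and turned to 10 and 7 with equal lengths. Among strong regions Kcnj6 stood at 0 and 6, Kcnn3 at 0 and 3 and Kcnip1 at 1 and 6. Of the genes with the most regions, Kcnip1 and Kcnma1 with 60, Kcnq1 with 51 and Kcnd3 with 48 had a CPN-only excess, and Kcnab1 with 44 had a CSMN-only excess.

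Strength of a CPN-only region was taken as its smaller fold of CPN 1 and CPN 2. The highest, at chromosome 5, 24335909 to 24336328, lay inside the ERG channel gene Kcnh2, 15597 bp from its nearest end, with folds of 10.8 in CPN 1 and 10.1 in CPN 2. Kcnip2, which encodes a KChIP that raises Kv4 surface expression, had CPN-only regions at chromosome 19, 45821851 to 45822257, with folds of 8.26 and 8.59, and at 45804952 to 45805252, with folds of 7.63 and 7.89. The region with folds of 8.26 and 8.59 lies in the neighbouring gene Armh3. The ELK gene Kcnh4 had a region at chromosome 11, 100745181 to 100745426, with folds of 7.14 and 7.25. No CSMN-only region at a Kcn gene exceeded a fold of 3.3 in the CSMN list.

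By role, the KChIP genes had 27 CSMN-only regions and 21 CPN-only ones, the Kv beta genes 16 and 11 and the silent Kv genes 13 and 8. Their CSMN-only shares were 56.2% (42.3 to 69.3), 59.3% (40.7 to 75.5) and 61.9% (40.9 to 79.2), against 32.5% over all genes. Single genes carried the KChIP and Kv beta counts. Without Kcnip4 the other 3 KChIP genes had 11 and 18, each with more CPN-only regions, and without Kcnab1 the other Kv beta genes had 2 and 4. Each of these groups had fewer CSMN-only than CPN-only regions among strong regions, at 7 and 11, 2 and 6, and 0 and 5. Kcns1, Kcns2 and Kcnv2, silent subunits that modify Kv2 channels, had 2 CSMN-only regions and 0 CPN-only ones each. The leak channel genes had the largest difference in count the other way, with 6 CSMN-only regions and 34 CPN-only ones over 14 genes, of which 1, Kcnk9, had more CSMN-only and 9 had more CPN-only regions. The inward rectifier genes had 10 and 29 over 15 genes. The CSMN-only share was 15.0% for leak channel genes (7.06 to 29.1) and 25.6% for inward rectifier genes (14.6 to 41.1), against 32.5% over all genes. With equal lengths these groups stood at 10 and 12 and at 11 and 19, where the share over all genes was 53.7%.

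Among the remaining groups the Kv7 genes had 18 CSMN-only regions and 32 CPN-only ones and the BK genes 14 and 21, the pore gene Kcnma1 and the beta gene Kcnmb2 leaning opposite ways. The EAG, ERG and ELK genes had 17 and 19, the Kv4 genes 8 and 13, with Kcnd2 and Kcnd3 likewise opposed, and the SK and IK genes 8 and 13. Kv1 genes, the low-threshold channels of axons, had 4 and 6, Kv3 genes, which allow fast repolarisation, 4 and 4, and the MinK-related genes 0 and 4. Kcnt1, Kcnt2 and Kcnu1 had 7 and 3 together, with 6 of the 7 at Kcnt2. With equal lengths the EAG, ERG and ELK genes turned to 20 and 14, the Kv7 genes to 26 and 18 and the BK genes to 17 and 10. The Kv4 genes turned to 14 and 10, the SK and IK genes to 8 and 5 and the Kv1 genes to 5 and 2. The share over all genes moved the same way, from 32.5% to 53.7%.

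**Figure D4:**
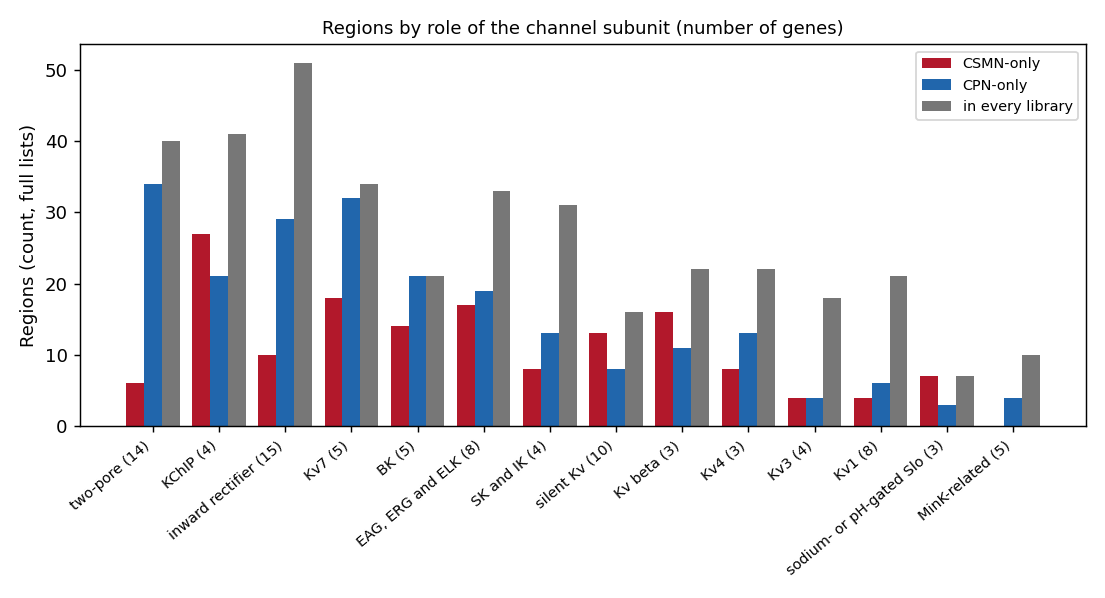
Number of CSMN-only (red), CPN-only (blue) and every-library regions (grey) for 14 groups of potassium channel genes by role, with the number of genes in brackets, full lists; the single gene Kcnrg and the Kv2 genes are not shown. The 14 genes of the leak group have 6 CSMN-only regions and 34 CPN-only ones, and the 4 KChIP genes have 27 and 21.

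Other genes common in pyramidal neurons sat between these ends. Kcnq3, a Kv7 gene of the M-current, had 15 peaks in CSMN, 16 in CPN 1 and 18 in CPN 2, with 5 regions of each class, 0 and 4 among strong regions and 6 and 3 with equal lengths. The Kv1 genes Kcna1 and Kcna2 had 0 CSMN-only and 1 and 0 CPN-only regions, and the Kv3 gene Kcnc1 had 0 and 1. Kcnj3, which encodes GIRK1, had 9, 7 and 7 peaks with 3 and 0 regions, opposite to its partner gene Kcnj6, but none of the 3 was strong. Kcnn2, the SK2 gene, had 14, 12 and 17 peaks with 4 and 2 regions, and turned to 0 and 2 among strong regions. The sodium-activated channel genes were opposed as well, as Kcnt1 had 4, 12 and 8 peaks with 1 and 3 regions, but 2 and 1 with equal lengths, the direction of Kcnt2.

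Peak totals per gene were compared next. In 13 members CSMN had more peaks than each CPN library (13.8%, with 7.09% of all genes), and in 54 it had fewer (57.4%, with 43.9%). Kcnip4, Kcnab1, Kcnb2, Kcnd2, Kcnh7, Kcnh8, Kcnj3, Kcnmb2 and Kcnt2 were among the 13, and the 4 others, Kcna4, Kcnj8, Kcnk6 and Kcns1, had at most 6 CSMN peaks.

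Gene length separated the members. Across the 94 genes Spearman's rho with length was 0.8 for regions, 0.65 for CSMN-only and 0.57 for CPN-only regions, a description over genes that share the same 3 libraries and whose windows grow with length. The 23 members of at least 100 kb had 120 CSMN-only regions and 119 CPN-only ones, a CSMN-only share of 50.2% (43.9 to 56.5), whereas all genes of that length had 32.2% (31.6 to 32.8). The 71 shorter members had 45 and 110, a share of 29.0% (22.5 to 36.6), and all shorter genes had 32.8%. Among long members 12 had more CSMN-only regions (52.2%, with 21.6% of long genes) and 10 more CPN-only regions (43.5%, with 66.6%). All 19 strong CSMN-only regions at Kcn genes lay in long members, where the share was 21.8% (14.5 to 31.6) against 7.45% over all long genes. These 19 came from 10 members, with 6 at Kcnip4 and 4 at Kcnb2. Over all genes, 654 of 1386 strong CSMN-only regions lay at genes of at least 100 kb. Long members with more CSMN-only strong regions numbered 3 (5.23% of long genes), and those with more CPN-only strong regions numbered 15 (75.4%). With equal lengths the shares were 68.2% for long members and 53.7% for long genes.

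**Figure D5:**
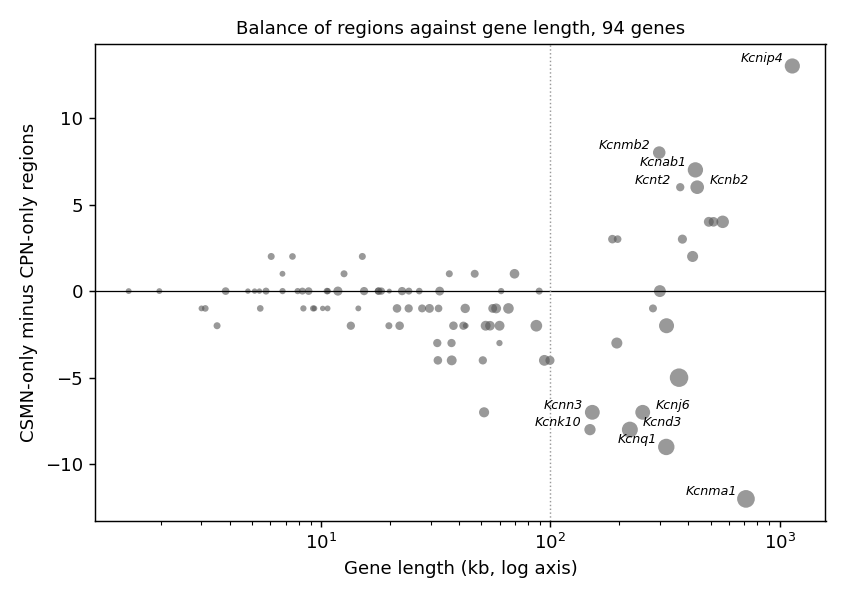
CSMN-only minus CPN-only regions (full lists) against gene length in kb (log axis) for the 94 potassium channel genes; the size of a point grows with the number of regions, the dotted line marks 100 kb and names are given at genes with a difference of at least 6, with 1 point left unnamed. Genes under 100 kb lie at 2 or below, while long genes reach both ends, with Kcnip4 highest and Kcnma1 lowest.

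The long members with opposite balance also differed in how densely open regions were spaced. The 12 with a CSMN-only excess had 0.748 to 2.91 regions of every library per 100 kb, with a median of 1.53, and the 10 with a CPN-only excess had 1.09 to 6.61, with a median of 3.89. The ranges overlapped: 4 of the 10, Kcnma1 with 1.09, Kcnh1 with 1.17, Kcnh5 with 1.33 and Kcnk2 with 1.4, lay below the median of the genes with a CSMN-only excess. Over all long genes the CSMN-only share was 45.3% in the quartile with the lowest density of such regions and 32.1%, 30.3% and 27.7% in the next quartiles. The long members in those quartiles numbered 10, 5, 4 and 4, with shares of 59.1% (48.6 to 68.8), 70.2% (56.0 to 81.3), 44.0% (31.2 to 57.7) and 24.1% (14.6 to 36.9). The part of density in the balance was not tested.

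Genes outside the Kcn symbols whose proteins bind or cluster potassium channels were counted in the same way. Of 16 such genes, 3 had more CSMN-only and 10 more CPN-only regions, and 11 had a gene-end peak in every list, where the shares over all genes were 14.5%, 37.9% and 64.1%. Dpp10, a partner of Kv4 channels, had 14 CSMN-only regions and 1 CPN-only ones, and its paralog Dpp6 had 9 and 18. Cntnap2 and Adam22, of the Kv1 complexes of the axon, had 19 and 13 and 6 and 1. Ank3 and Ank2, the ankyrin genes, had 4 and 21 and 7 and 16, and Abcc8, the sulfonylurea receptor of inward rectifiers, had 1 and 7. Among strong regions Dpp10 stood at 4 and 1, Adam22 at 2 and 0, and Cntnap2 turned to 2 and 9. With equal lengths Dpp6 turned to 18 and 6 and Ank2 to 15 and 11.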

How the data were processed

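Peaks were deposited by the authors as 1 list per library, and peak names carry a single library each, so the lists were taken as called per library. Build mm10 and the tools bedtools 2.29.2, MACS2 2.2.7.1 and BWA 0.7.17 are listed, with no roles, in the submitters' processing notes. Read filters, the shift of reads for the transposase and duplicate removal are not given in the sources used here, and could change which weak peaks exist. The deposited lists give a fold (the ratio of signal to background at the summit), a −log10 p and −log10 q, and a score, found to be the −log10 q times 10 cut to a whole number, and the summit position. Folds are the authors' values and describe peaks within a list.

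Peaks of the 3 lists that overlapped by at least 1 bp were merged into regions (Python 3.11.15, pandas 2.3.3, NumPy 2.4.6, SciPy 1.17.1). Gene positions, without strand, and start windows with strand came from RefSeq tables of GRCm38.p6, where 69 of 94 members had a start window. A gene end lay within 1 kb, and strong peaks had a −log10 q of at least 5. The members, gene lists and tests were chosen with earlier results of these data known. Genes were named by a fixed rule: the 8 with the largest excess of each class, the 5 with the most regions, the 5 strongest gene ends, ends open in 1 cell type and a list of cortical channel genes. Other genes, start windows and regions given by name, the strong regions and the split at 100 kb were chosen after the values were seen. Some genes that the rule names are not reported here. No p-value was computed, because CSMN had 1 library. Wilson intervals cover counting error only. The merging was tested on simulated data with known classes.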

Additional observations from a re-analysis of the deposited data

How the results depend on the processing

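No paired analysis was possible because CSMN has a single library, so the groups share fewer than 2 replicate numbers. On the full lists Kcn genes had 165 CSMN-only regions and 229 CPN-only ones, with CSMN-only regions at 41.9% of both, 29.9% of regions in every library, and 20 genes with more CSMN-only against 48 with more CPN-only regions. With equal list lengths there were 125 CPN-only regions, with CSMN-only regions at 63.1% of both classes, 39.5% of regions in every library, and 43 genes with more CSMN-only against 26 with more CPN-only regions. This setting trims the CPN lists alone. With lists held to a −log10 q of at least 5 there were 30 CSMN-only regions, a share of 14.0%, 41.8% in every library and 4 genes with more CSMN-only regions. Over all genes that share was 8.34%, with 41.2% of regions in every library. For strong regions of the full lists, a setting chosen after seeing the data, the values were 19 CSMN-only regions and 120 CPN-only ones, 13.7%, 54.3% and 3 genes. With 50 kb flanks there were 387 CPN-only regions.

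Leaving out each CPN library in turn gave 188 to 212 CSMN-only and 403 to 530 CPN-only regions, a share of 28.6% to 31.8%, 35.4% to 41.2% of regions in the remaining libraries, 15 to 18 genes with more CSMN-only and 54 to 70 with more CPN-only regions, and 71 to 72 genes with a gene-end peak in every library. The overlap rule, gene bodies alone and placement by summit moved these counts by less than 1.5 times and the shares by less than their counting intervals. Genes with a gene-end peak in every library numbered 63 to 82 over the other settings. The leave-one-out shares have no all-gene value here. For single named genes, 31 of 92 counts moved by more than 1.5 times with equal lengths, 53 with stricter lists and 60 with strong regions. Read depth is unknown, and absence from the shorter CSMN list is not evidence that a site is closed.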
